A study of Homo sapiens with 6 samples.

Results

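Small nucleolar RNA (snoRNA) and small Cajal body RNA (scaRNA) genes were taken from the deposited expression table of the leukaemia line Kasumi-1. They were chosen by gene symbol and by the measured level itself: the symbol had to begin with SNORD, SNORA or SCARNA, and 3 or more of the 6 libraries had to reach 1 FPKM. FPKM is the fragments counted at a gene, divided by its length and by the total of the library. Of 29810 genes in the table, 163 had such a symbol and 59 of these reached the level: 28 of 62 box C/D genes (SNORD), 29 of 88 box H/ACA genes (SNORA) and 2 of 13 scaRNA genes (SCARNA). The 59 genes carry 57 different symbols, because SNORA75 stands for 3 separate loci on chromosome 12. For 8 of the 59, SNORD18, SNORD19C, SNORD58, SNORD63B, SNORA70 and the 3 SNORA75 loci, GENCODE release 29 gives the name of an RNA family only, and their symbols come from the gene name table.

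Kasumi-1 cells were kept with I1 at 0.125 µM for 48 h in 3 libraries, and with control, which the labels do not describe further, for 48 h in the other 3. The line comes from acute myeloid leukaemia, and all 6 samples share its t(8;21) translocation, which fuses RUNX1 with RUNX1T1. I1 is known here only by its code name. The libraries were made with a stranded kit that selects polyadenylated RNA, per the labels' protocols.

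Box C/D snoRNAs carry a C box near the start and a D box near the end, bind fibrillarin (FBL), NOP56, NOP58 and SNU13, and guide ribose methylation, mostly of ribosomal RNA. Box H/ACA snoRNAs end in an ACA box, bind dyskerin (DKC1), NHP2, NOP10 and GAR1, and guide the conversion of uridine to pseudouridine. scaRNAs gather in Cajal bodies and guide the same modifications on spliceosomal RNAs. In human cells most of these RNAs are cut from introns of a host gene after splicing, and the mature forms are short and not polyadenylated. Reads at these genes in a library selected for polyadenylated RNA therefore do not measure the mature small RNA, and reads from an intron of the host transcript cannot be told apart from reads of the snoRNA itself.

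The following sequences are the genes on which the results turn, taken from the GENCODE release 29 transcripts (GRCh38, the build named hg38 in the submitters' processing notes) and written 5′ to 3′. Capitals mark a C box (TGATGA) that starts in the first 20 bases, a D box (CTGA) in the last 20 bases, or an ACA 3 bases before the end. All other bases are in lower case. SNORD18 is at chr15:90755243-90755312 on the minus strand, is the one gene of the set that passed the test, and lies inside BLM, which is on the other strand. SNORD18C at chr15:66501250-66501318, also on the minus strand, is its nearest annotated relative at 84.3% identity and has no row in the table.
SNORD18: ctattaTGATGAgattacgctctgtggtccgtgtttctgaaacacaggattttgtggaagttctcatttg
SNORD18C: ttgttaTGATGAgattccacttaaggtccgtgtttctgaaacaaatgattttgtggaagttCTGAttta
Both have the C box, and only SNORD18C of this pair has the letters of the D box in its last 20 bases.

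SNORD99 at chr1:28578749-28578822, minus strand, in an intron of SNHG12, is the one gene of the set with all I1 libraries below all control libraries. SNORD94 at chr2:86135870-86136006, plus strand, in an intron of PTCD3, had the other unadjusted p under 0.05 among lower genes.
SNORD99: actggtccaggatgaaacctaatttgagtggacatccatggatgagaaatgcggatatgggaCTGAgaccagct
SNORD94: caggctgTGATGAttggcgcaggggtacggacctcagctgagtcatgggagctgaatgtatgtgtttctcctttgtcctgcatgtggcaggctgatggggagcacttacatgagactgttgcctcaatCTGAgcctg
The nucleolar GTP-binding protein gene GNL3 holds 3 C/D genes of the set in separate introns on the plus strand of chromosome 3: SNORD19 at chr3:52689248-52689315, SNORD19C at chr3:52691378-52691453 and SNORD69 at chr3:52692736-52692812. They are shown because GNL3 was the only host of several genes of the set in which all had a log2 fold change above 1.
SNORD19: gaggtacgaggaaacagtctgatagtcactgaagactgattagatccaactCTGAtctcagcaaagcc
SNORD19C: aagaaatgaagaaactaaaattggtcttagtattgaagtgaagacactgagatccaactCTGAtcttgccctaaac
SNORD69: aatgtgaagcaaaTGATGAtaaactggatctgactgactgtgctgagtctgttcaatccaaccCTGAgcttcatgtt
The pair in PRRC2B, SNORD62A at chr9:131485665-131485750 and SNORD62B at chr9:131490486-131490571, both on the plus strand, has the same 86 bases. Reads that lie wholly within these bases cannot be told apart by sequence.
SNORD62A: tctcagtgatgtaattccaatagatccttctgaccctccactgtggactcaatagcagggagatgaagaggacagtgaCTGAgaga
SNORD62B: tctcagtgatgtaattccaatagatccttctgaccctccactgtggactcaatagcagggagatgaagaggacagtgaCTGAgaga
Of the H/ACA genes, SNORA33 at chr6:132817219-132817348, plus strand, in RPS12, and SNORA55 at chr1:39567374-39567508, minus strand, in PABPC4, had non-overlapping groups with at least 10 reads a library on average. SNORA33 ends in the letters aca themselves, which are not marked. SNORA73B at chr1:28508559-28508762, plus strand, in SNHG3, had the highest mean FPKM of its class.
SNORA33: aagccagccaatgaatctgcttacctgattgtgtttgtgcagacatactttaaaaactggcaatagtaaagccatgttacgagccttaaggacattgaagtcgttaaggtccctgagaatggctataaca
SNORA55: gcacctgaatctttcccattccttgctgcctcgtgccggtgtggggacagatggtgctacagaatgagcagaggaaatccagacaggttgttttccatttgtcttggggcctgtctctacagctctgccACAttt
SNORA73B: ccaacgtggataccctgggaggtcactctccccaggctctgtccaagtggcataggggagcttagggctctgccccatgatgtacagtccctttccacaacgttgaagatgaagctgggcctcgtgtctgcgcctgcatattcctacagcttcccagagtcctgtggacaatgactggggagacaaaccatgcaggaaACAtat

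The class given by the symbol prefix was set against these letters on the transcribed strand. The C box was found in 19 of 28 C/D genes (67.9%) and the D box in 27 of 28 (96.4%), SNORD18 being the exception, against 65.5% and 90.1% of the 313 annotated genes of the class. Both boxes stood together in 18 C/D genes (64.3%, against 62.6%) and in 0 of 29 H/ACA genes. The ACA was found in 21 of 29 H/ACA genes (72.4%, against 66.7% of 213 annotated ones), and both scaRNA genes had it. A sequence of the form ANANNA, the H box, was found in the middle part of 28 of 29 H/ACA genes (96.6%, against 90.1%). The median log2 fold change of I1 over control was 0.24 for the 18 C/D genes with both boxes and 0.54 for the 10 without, and 0.28 for the 21 H/ACA genes with the ACA and 0.04 for the 8 without.

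The library totals behind the FPKM values lay between 16391000 and 16948000 with I1 and between 17331000 and 18204000 in control. Control replicate 1 stood apart from the other libraries: it was at -43.8 on the first principal component, which held 52.1% of the variance, against -2.90 to 19.8 for the other 5. Results are therefore also given without it. The labels do not say whether replicates were separate cultures, and the p-values therefore reflect only how these 6 samples vary, a spread that may be technical. Of the myeloblast markers of the line, MPO averaged 6712 and KIT 196 FPKM with I1, against 8054 and 162 FPKM in control; CD34, RUNX1, RUNX1T1 and CD33 were all above 10 FPKM in both group means. Of the markers of other cell types, CD3E and COL1A1 stayed below 1 FPKM in every library, and EPCAM, an epithelial adhesion gene, was at 28.4 ± 2.49 FPKM with I1 and 24.97 ± 2.33 FPKM in control (SD, n = 3 each).

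The 59 genes had few reads. The FPKM values of all 59 could be turned back into whole read numbers within a tolerance of 0.05 reads, and these ran from 0 to 73 reads a gene and library. The 3 I1 libraries held 457, 605 and 554 reads at the 59 genes, and the 3 control libraries 427, 529 and 529. A mean of at least 10 reads a library was reached by 17 of the 59, and 20 had no read in at least 1 library. In a gene of 100 bases 1 read is worth 0.549 to 0.610 FPKM, so the FPKM of a single gene moves in steps of that size. Intervals given below cover counting error only.

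**Figure D1:**
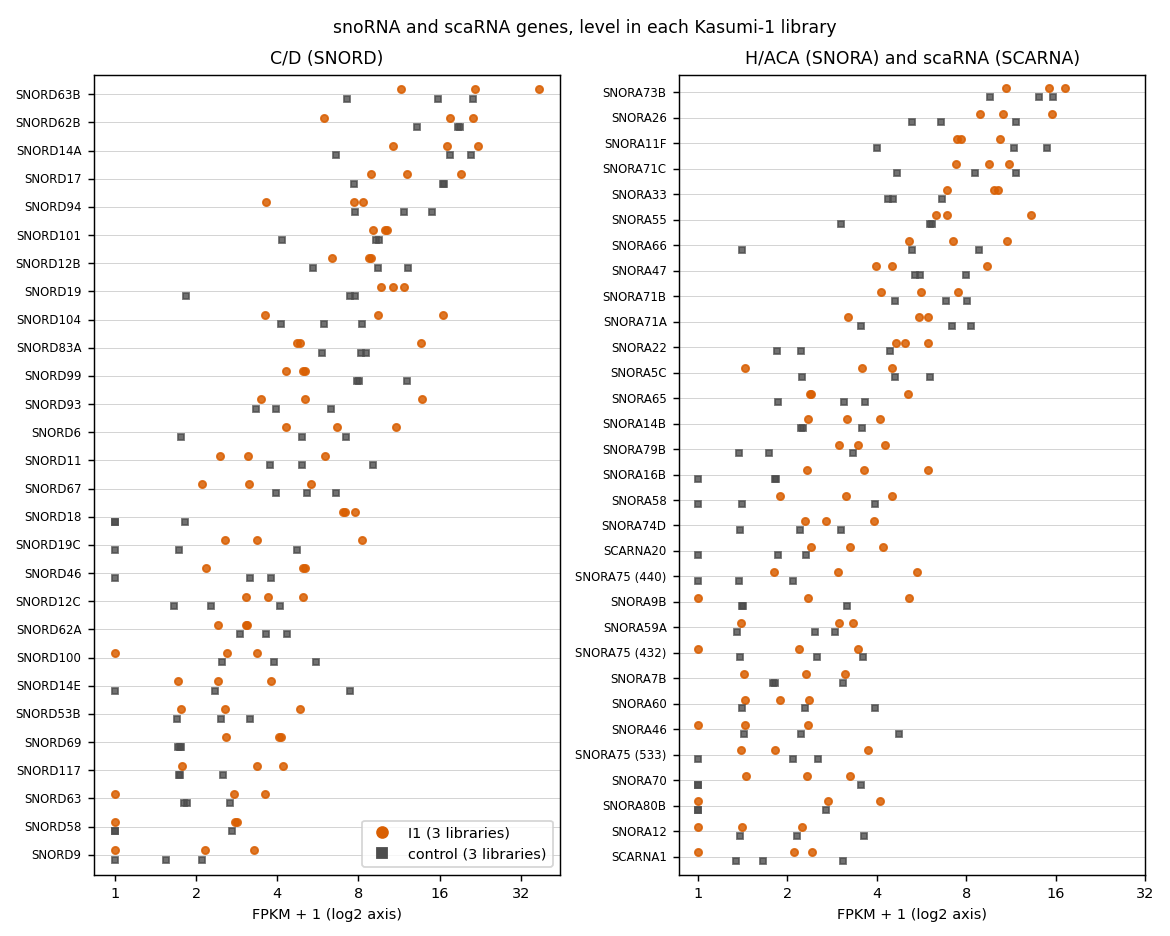
Level of each of the 59 genes in each library, as FPKM + 1 on a log2 axis, with C/D genes on the left panel and H/ACA and scaRNA genes on the right, ordered by mean FPKM. Circles are the 3 I1 libraries and squares the 3 control libraries; the groups overlap for all genes except the 9 named in the text, and SNORD18 has the widest gap, with 6.02 to 6.74 FPKM with I1 and 0 to 0.824 FPKM in control. The last 3 digits of the gene identifier tell the SNORA75 loci apart.

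The rule on level treated both groups alike, and how the 59 met it is as follows. All 6 libraries were at 1 FPKM or more for 24 genes, 5 libraries for 10, 4 for 7 and exactly 3 for 18. SNORD18, SNORA16B and SNORD69 passed only through the 3 I1 libraries, and 0 genes passed only through the 3 control libraries. Genes of the set at 1 FPKM numbered 49, 52 and 51 in the I1 libraries and 36, 47 and 41 in the control libraries. The lowest count, 36, was that of control replicate 1, the library that stood apart from the others. These counts are not independent of the level rule, and the counts over all genes are not reported here. Just inside the rule, by the level that decided the rule, were the SNORA75 loci ENSG00000212440 and ENSG00000212533 and SCARNA1, each at 1.1 FPKM. Just outside were SNORA28 at 0.955, SNORA22B at 0.884 and SNORA3B at 0.881 FPKM.

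The comparison of I1 with control asked which of these genes differed after 48 h, in a fit over all 11913 genes that met the same level rule. A gene was called where the Benjamini-Hochberg adjusted p was under 0.05 and the log2 fold change was 1 or more in size, by limma on log2(FPKM + 1), a scale that understates the change of low genes. Called genes were 4 of 11913, all higher with I1, a background of 0.0336%, and 1 of them was among the 59 (1.69%): SNORD18. The other 58 did not pass, and the smallest limma adjusted p among them was 0.467. This fit did not pair the libraries by replicate number. With that number as a block, the smallest limma adjusted p of these 58 was 0.140. Without the block, 2 of 73 snRNA genes and 1 of 77 microRNA genes were called, and 0 of 9858 protein-coding genes. In bulk RNA of this kind, fewer cells of a type and less RNA per cell cannot be told apart.

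SNORD18, whose family guides ribose methylation of the large-subunit ribosomal RNA, was higher with I1 and was the one gene of the set that was called. It had 6.10, 6.74 and 6.02 FPKM in the I1 libraries, against 0, 0.824 and 0 FPKM in the control libraries. These values stand for 7, 8 and 7 reads with I1 and 0, 1 and 0 reads in control, so the groups were far apart but rest on 1 control read in all. The level averaged 6.29 ± 0.398 FPKM with I1 and 0.275 ± 0.476 FPKM in control (SD, n = 3 each). The log2 fold change was 2.57 ± 0.243 (SE; limma adjusted p = 0.0353), and the ratio of reads scaled by library total was 23.4, with an exact 95% interval of 3.79 to 967. SNORD18 passed the level rule only through the I1 libraries, so it had to be higher there to be in the set, and its p is not independent of that rule. With no level rule in the fit the limma adjusted p was 0.306.

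The call on SNORD18 rested on the setting. Its direction was the same throughout, which is no support for the call. Leaving out a library or changing the pseudocount cannot reverse groups that do not overlap. With the replicate number as a block the limma adjusted p was 0.0203. Leaving out I1 replicate 1, 2 or 3 gave 0.256, 0.135 or 0.290. Leaving out control replicate 1 gave 0.156, control replicate 3 gave 0.126, and control replicate 2, the one control library with a read at the gene, gave 0.00239. Over the 14 other settings it passed in 4 and did not in 10, with a limma adjusted p between 0.00239 and 0.472 and a log2 fold change between 2.29 and 4.93.

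SNORD18 has no host gene on its own strand. It lies inside BLM, the gene of a RecQ DNA helicase, which is transcribed from the other strand, and as the authors' use of strand in counting is unknown here, reads of BLM and of SNORD18 cannot be told apart. BLM was at 11.8, 14.3 and 10.7 FPKM with I1 and 7.10, 12.6 and 11.2 FPKM in control, with overlapping groups and a log2 fold change of 0.26 ± 0.209 (SE; limma adjusted p = 0.552). The other annotated SNORD18 genes, SNORD18A, SNORD18B, SNORD18C and one on chromosome 2, are 75.3% to 84.3% identical to it, and none has a row in the table, so they were not analysed here.

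**Figure D2:**
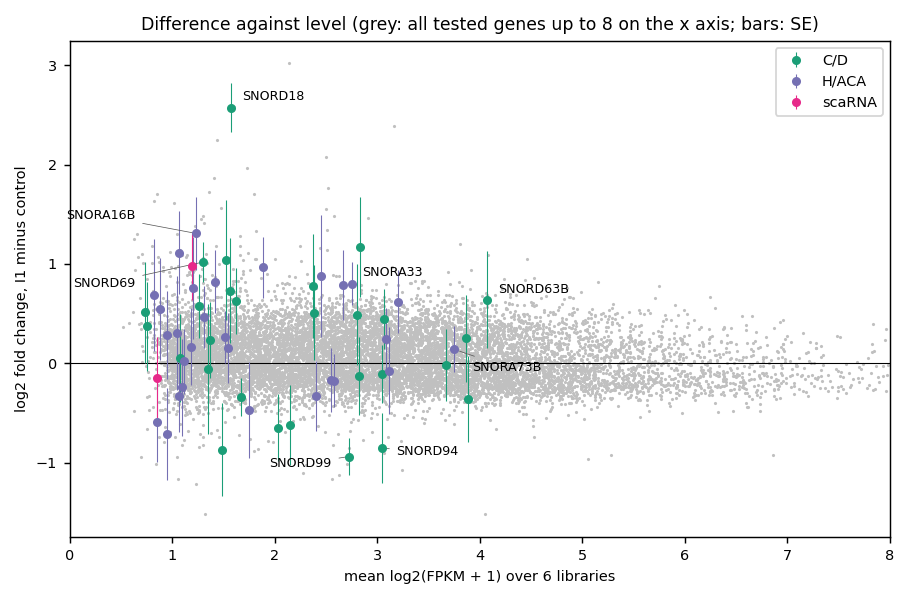
Log2 fold change of I1 over control (y axis) against the mean log2(FPKM + 1) over the 6 libraries (x axis), with the 59 genes coloured by class, bars giving 1 SE, and all other tested genes with a mean up to 8 as grey points. SNORD18 is at 2.57, while the genes with higher levels, such as SNORD63B at 0.64 and SNORA73B at 0.14, lie among the grey points.

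Without adjustment, 11 of the 59 had a limma p under 0.05 (18.6%), against 9.57% of all tested genes. The same share was 27.4% for 73 snRNA genes and 19.5% for 77 microRNA genes. Of the 11, 9 were higher with I1 (15.3%, against 6.8% of all tested genes) and 2 lower (3.39%, against 2.77%). Among the 9, SNORD18, SNORD69 and SNORA16B entered the set only through the I1 libraries. The shares of 18.6% and 15.3% are therefore not independent of the level rule. Groups without overlap were found for 8 genes higher with I1 (13.6%, against 12.9%) and for 1 gene lower (1.69%, against 8.74%). The 8 were SNORD18, SNORD19, SNORD69, SNORA16B, SNORA22, SNORA33, SNORA55 and SCARNA20, and the 1 was SNORD99. Their share with all I1 libraries higher is thus near the background, and 3 of them (SNORD18, SNORD69 and SNORA16B) entered the set only through the I1 libraries. SNORD19, SNORD69, SNORD99, SNORA16B, SNORA22, SNORA79B and one SNORA75 locus are described because of their values, which were seen first.

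Among the C/D genes the most abundant was SNORD63B, with 10.5, 36.2 and 20.6 FPKM with I1 and 6.28, 14.8 and 20.2 FPKM in control. Each numbered pair was higher with I1, but the groups overlapped and the gene did not pass (log2 fold change 0.64 ± 0.489 SE; limma adjusted p = 0.537). The log2 fold change was 1.08 without I1 replicate 1, 0.23 without I1 replicate 2, 0.20 with control replicate 1 left out and 0.97 with control replicate 3 left out. All its 70 bases lie in an annotated exon of HSPA9, a mitochondrial heat shock protein gene at 116 FPKM with I1 and 114 FPKM in control, so its reads cannot be told apart from those of that exon.

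SNORD62B, which guides methylation of the small-subunit ribosomal RNA, had 4.97, 16.5 and 20.3 FPKM with I1 and 12.1, 18.1 and 17.8 FPKM in control. The first I1 library was the lowest of the 6, and the log2 fold change of -0.36 ± 0.436 (SE; limma adjusted p = 0.677) became 0.20 without it. Its identical copy SNORD62A had 1.42, 2.06 and 2.10 FPKM with I1 and 1.92, 3.35 and 2.63 FPKM in control. The copies lie in introns of PRRC2B and were given unequal numbers of reads in the table despite having the same letters.

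SNORD14A, another small-subunit guide, in the ribosomal protein gene RPS13, had 16.1, 9.73 and 21.2 FPKM with I1 and 19.9, 16.5 and 5.59 FPKM in control, a spread wider than any difference between the groups. SNORD17, a long C/D gene in the sorting nexin gene SNX5, had the most reads of the set, 43, 73 and 31 with I1 and 29, 64 and 65 in control. Its log2 fold change was -0.01 ± 0.362 (SE), with overlapping groups. SNORD14A and SNORD17 both changed sign when single libraries were left out.

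SNORD94, which guides methylation of the U6 spliceosomal RNA, had 6.68, 7.32 and 2.63 FPKM with I1 and 10.8, 6.74 and 14.03 FPKM in control. The second control library lay between the I1 values, so the groups overlapped. The log2 fold change was -0.86 ± 0.352 (SE), with an unadjusted limma p of 0.0414 and an adjusted p of 0.467. Without I1 replicate 3 it was -0.48, with an unadjusted limma p of 0.125. Its host PTCD3, a mitochondrial ribosomal protein gene, had a log2 fold change of 0.19.

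SNORD99, a guide for the large-subunit ribosomal RNA, had 3.30, 3.99 and 4.06 FPKM with I1 and 11.1, 7.02 and 6.88 FPKM in control. All I1 libraries were lower, on 4, 5 and 5 reads against 15, 9 and 9. The log2 fold change was -0.94 ± 0.189 (SE; limma unadjusted p = 0.00111, adjusted p = 0.467), and the scaled ratio of reads 0.452 (exact 95% interval 0.223 to 0.868). The direction was the same in all 15 other settings. As the groups of SNORD99 did not overlap, leaving out single libraries could not change that direction. Its host SNHG12, a noncoding snoRNA host gene, had 6.76, 5.82 and 7.77 FPKM with I1 and 9.68, 7.21 and 8.003 FPKM in control, a log2 fold change of -0.26 with overlapping groups.

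The other tested C/D genes with low levels gave no call. SNORD3A, the U3 RNA that takes part in cleavage of the ribosomal RNA precursor, stayed under the level rule and was not tested. Its annotated length is 699 bases, and it had 6, 6 and 19 reads with I1 and 1, 3 and 8 reads in control. SNORD11 in NOP58, which encodes a C/D core protein, had 1.45, 2.11 and 5.01 FPKM with I1 and 3.92, 2.75 and 8.08 FPKM in control. SNORD11, SNORD62A, SNORD67, SNORD99 and the H/ACA gene SNORA12 were lower with I1 in 3 of 3 numbered pairs (8.47% of the 59, against 25.8% of all tested genes), and 16 genes were higher in 3 of 3 (27.1%, against 32.1%).

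Among the H/ACA genes, SNORA73B, one of the U17 RNAs that act in cleavage of the ribosomal RNA precursor rather than in modification, had 9.87, 16.2 and 14.2 FPKM with I1 and 8.62, 14.7 and 13.0 FPKM in control. Each I1 library was above the control library of the same number, by less than the spread within a group. The log2 fold change was 0.14 ± 0.231 (SE; limma adjusted p = 0.758). Its near copy SNORA73A, 93.2% identical, was not analysed here, and reads may be split between the copies.

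SNORA33, a guide for pseudouridine in the large-subunit ribosomal RNA, had 8.92, 5.90 and 9.26 FPKM with I1 and 3.38, 3.55 and 5.65 FPKM in control. The I1 libraries were all above the control libraries, by little for I1 replicate 2 and control replicate 3. The log2 fold change was 0.80 ± 0.218 (SE; limma unadjusted p = 0.0063, adjusted p = 0.467). Without control replicate 1 it was 0.69, with an unadjusted limma p of 0.0199.

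SNORA55, a guide for the small-subunit ribosomal RNA, had 5.88, 12.2 and 5.35 FPKM with I1 and 2.03, 5.13 and 5.03 FPKM in control, without overlap but with the lowest I1 and the highest control library close together. Its log2 fold change of 0.79 ± 0.354 (SE) had a limma adjusted p of 0.467 and was 0.45 without control replicate 1 and also 0.45 without I1 replicate 2. SNORA26, in the long noncoding RNA gene DANCR, had 14.5, 9.67 and 7.89 FPKM with I1 and 10.8, 4.26 and 5.56 FPKM in control, higher in each numbered pair, with overlapping groups. Its log2 fold change of 0.62 was 0.39 without I1 replicate 1, 0.95 without control replicate 1 and 0.37 without control replicate 2. An unnamed gene 91.8% identical to SNORA26 was not analysed here.

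SNORA16B, in an intron of the phosphatase subunit gene PPP2R5A, had 4.97, 2.62 and 1.34 FPKM with I1 and 0.814, 0 and 0.838 FPKM in control. Its log2 fold change of 1.31 ± 0.371 (SE; limma unadjusted p = 0.0079, adjusted p = 0.467) was the second largest of the set, on 11, 6 and 3 reads against 2, 0 and 2. SNORA22 had 3.64, 3.96 and 4.94 FPKM with I1 and 1.23, 3.44 and 0.844 FPKM in control, and a copy in the table is 98.5% identical to it. SNORA16B lies near the level rule, with exactly 3 libraries at 1 FPKM or more, and SNORA22 has 5 such libraries.

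SNORA79B, in CCNB1IP1, had 2.47, 1.99 and 3.25 FPKM with I1 and 0.742, 2.34 and 0.382 FPKM in control, with overlap. The SNORA75 locus ENSG00000212440 had 4.47, 1.97 and 0.802 FPKM with I1 and 1.099, 0 and 0.377 FPKM in control, a log2 fold change of 1.11 ± 0.420 (SE; limma adjusted p = 0.467). The other SNORA75 loci, ENSG00000212533 and ENSG00000212432, had log2 fold changes of 0.28 and -0.24. The 3 loci are 96.0% to 98.7% identical, and how reads were divided among them in the authors' counting is unknown here.

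SNORA11F and SNORA71C complete the most abundant H/ACA genes. SNORA11F had 6.67, 6.45 and 9.40 FPKM with I1 and 3.00, 13.97 and 10.6 FPKM in control, and its log2 fold change of -0.08 changed sign when single libraries were left out. SNORA71C, a small-subunit guide in SNHG17, had 6.37, 10.1 and 8.53 FPKM with I1 and 3.69, 10.8 and 7.59 FPKM in control, with overlap. In all, 15 of the 59 genes have an annotated copy at least 90% identical, and their values are uncertain for that reason.

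The scaRNA class had 2 genes at the level of the rule. SCARNA20, which guides pseudouridine in the U12 spliceosomal RNA, had 1.40, 2.25 and 3.21 FPKM with I1 and 0, 1.32 and 0.863 FPKM in control. The groups did not overlap, on 3, 5 and 7 reads against 0, 3 and 2, and the log2 fold change was 0.98 ± 0.337 (SE; limma unadjusted p = 0.0201, adjusted p = 0.467). Without control replicate 1 it was 0.62. SCARNA1, a guide for the U2 spliceosomal RNA, had 1.103, 1.42 and 0 FPKM with I1 and 0.662, 2.09 and 0.341 FPKM in control, with overlap. SCARNA20 lies in USP32, a deubiquitinase gene, and SCARNA1 in PPP1R8, a regulator of protein phosphatase activity, with host log2 fold changes of 0.09 and -0.08.

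By class, the genes as a whole lay slightly above all tested genes, as a description with no test. The median log2 fold change of the 59 was 0.26, between -0.94 and 2.57, against 0.03 for all 11913 tested genes, and 38 of 59 were above 0 (64.4%, against 54.5%). The median was 0.31 for C/D genes (17 above 0, 11 below), 0.26 for H/ACA genes (20 above, 9 below) and 0.42 for the 2 scaRNA genes. The 3 numbered pairs gave medians of 0.18, 0.20 and 0.30 for the set, of -0.19, 0.41 and 0.13 for C/D genes and of 0.54, 0.02 and 0.35 for H/ACA genes. The pairs of a class thus differed by more than the class medians did.

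These medians moved with the low genes and with single libraries. Without control replicate 1 the median of the set was 0.13, that of C/D genes 0.16 and that of H/ACA genes 0.12. Without I1 replicate 2 these medians were 0.14, 0.18 and 0.10, and without I1 replicate 3 that of C/D genes was 0.13. Among the 17 genes with at least 10 reads a library it was -0.01, with 8 genes above 0 and 9 below. A log2 fold change of at least 1 was reached by 6 of the 59 (10.2%, against 0.546% of all tested genes), and all 6 averaged under 10 reads a library. Among these 6, SNORD18, SNORA16B and SNORD69 entered the set only through the I1 libraries, so this share is not independent of the level rule. Other short noncoding genes gave medians of 0.56 (73 snRNA genes) and 0.19 (77 microRNA genes), and 9858 protein-coding genes gave 0.02. Across all tested genes the log2 fold change was lower at higher GC content (Spearman's rho -0.753 over 11899 genes, which share the 6 libraries, as a description), while the median GC content was 46.5% for the 59 and 47.9% for the tested genes. After a correction for GC content the median of the 59 was 0.25, that of C/D genes 0.07 and that of H/ACA genes 0.26.

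Summed over the 59 genes, the level was 236, 302 and 299 FPKM with I1 and 200.4, 247 and 249 FPKM in control. Each I1 library was above the control library of the same number, and the first I1 library lay below control replicates 2 and 3. The ratio of means was 1.2, and 1.12 without control replicate 1. C/D genes summed to 126, 184 and 183 FPKM with I1 and 130, 135 and 159 FPKM in control, higher in 2 of 3 pairs, with a ratio of 1.16.

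H/ACA genes summed to 107, 115 and 112 FPKM with I1 and 70.3, 109 and 89.1 FPKM in control, higher in 3 of 3 pairs, with a ratio of 1.25, or 1.13 without control replicate 1. The scaRNA genes held 6, 9 and 7 reads with I1 and 2, 9 and 3 reads in control. As reads per 1000000 of the library total, the 59 genes held 27.9, 35.7 and 33.3 with I1 and 23.5, 30.5 and 29.9 in control, a ratio of 1.16, with overlap.

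The genes under the level rule were summed in the same way. The 104 snoRNA and scaRNA genes outside the set, of which 11 were at 0 in all libraries, held 4.82, 5.84 and 6.74 reads per 1000000 with I1 and 3.08, 4.21 and 3.17 in control. These groups did not overlap, on 79, 99 and 112 reads against 56, 73 and 56, and the ratio was 1.66. All 163 genes together held 32.7, 41.5 and 40.1 reads per 1000000 with I1 and 26.5, 34.7 and 33.1 in control, a ratio of 1.21 with overlap.

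**Figure D3:**
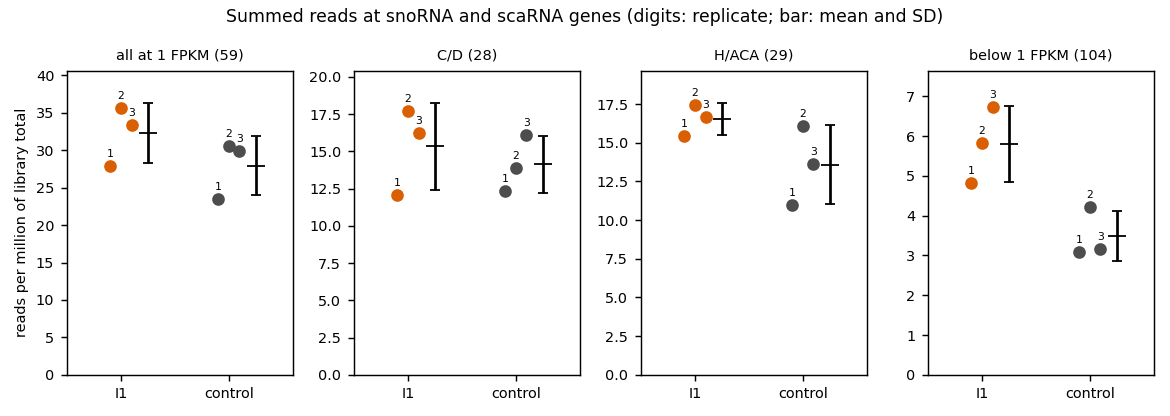
Reads per 1000000 of the library total, summed over all 59 genes, the C/D genes, the H/ACA genes and the 104 genes below the level rule, from left to right. Points are libraries, numbered by replicate, and the black mark with its bar is the mean with 1 SD (n = 3 each); the I1 and control points overlap in the first 3 panels and not in the last.

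Host genes were the annotated genes that enclose a snoRNA or scaRNA gene on the same strand. A host was found for 51 of the 59 genes, in 42 host genes, of which 33 code for protein and 9 do not. In 49 cases the gene lay wholly within introns, and SNORD63B and SNORD63 overlapped exons of HSPA9, by 70 and 20 bases. Of the 8 without a host, SNORD18, SNORA11F and one SNORA75 locus lay inside a gene on the other strand, and SNORA22, SNORA70, SNORA7B and the other two SNORA75 loci lay in no gene.

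The log2 fold changes of the hosts, which have far more reads, spanned a narrower range than those of the genes inside them. Over the 41 tested hosts, the median log2 fold change was 0.06 with a range of -0.32 to 0.51, and 0 were called by limma at an adjusted p under 0.05. A host p under 0.05 without adjustment was found for 1, TAF1D, a factor of RNA polymerase I, at 0.39 ± 0.145 (SE; limma unadjusted p = 0.0265, adjusted p = 0.467). Its gene SNORD6 had 10.03, 5.66 and 3.30 FPKM with I1 and 0.752, 3.95 and 6.20 FPKM in control, with overlap. The 50 genes with a tested host had a median log2 fold change of 0.25, the median of gene minus host was 0.10, and 31 of 50 lay above their host. Leaving out I1 replicate 1 moved that median of gene minus host to 0.31, and leaving out control replicate 1, 2 or 3 moved it to 0.03, 0.18 or 0.24.

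Gene and host had the same sign in 32 of 50 cases, and across the 50 genes their log2 fold changes had a Pearson's r of 0.25 and a Spearman's rho of 0.23. This is a description, since genes share hosts and all share the same 6 libraries. Per length, the median level of the genes was 10.3% of the host's level with I1 and 6.90% in control. This contrast is not independent of the level rule, because SNORA16B and SNORD69 entered the set only through the I1 libraries. In control the level ran from 0.266% of the host's for SNORD100 in RPS12 to 156% for SNORD12B in ZFAS1. With I1, SNORD93 in SNHG26 (146%), SNORD12B, SNORA47 and SNORA71C were above their host's level, and in control SNORD12B, SNORA47 and SNORD99 were. The 8 genes in 6 ribosomal protein hosts stood between 0.123% and 5.85% of the host's level with I1 and between 0.266% and 6.12% in control.

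**Figure D4:**
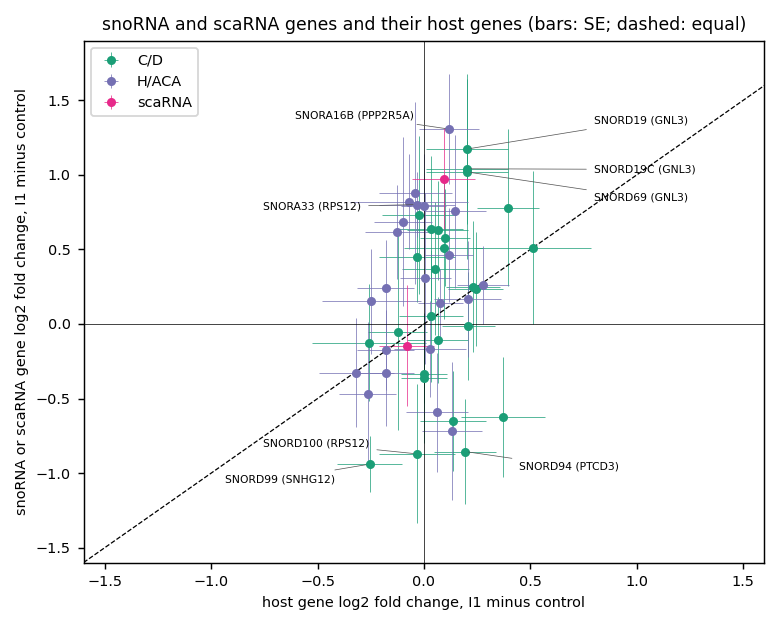
Log2 fold change of I1 over control of each of the 50 genes with a tested host (y axis) against that of the host (x axis), coloured by class, with bars of 1 SE and a dashed line of equal change. The hosts lie between -0.32 and 0.51, while the genes inside them spread from -0.94 for SNORD99 to 1.31 for SNORA16B.

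Several genes of 1 host allow a comparison within the same transcript. In GNL3, SNORD19, a guide for the small-subunit ribosomal RNA, had 10.8, 8.68 and 9.73 FPKM with I1 and 6.46, 6.79 and 0.831 FPKM in control. SNORD69, a guide for the large-subunit ribosomal RNA, had 1.58, 3.07 and 3.13 FPKM with I1 and 0.713, 0.749 and 0.734 FPKM in control, on 2, 4 and 4 reads against 1, 1 and 1. SNORD19C had 7.22, 1.55 and 2.37 FPKM with I1 and 0.723, 0 and 3.72 FPKM in control. The first 2 of these had groups without overlap and SNORD19C did not.

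The log2 fold changes in GNL3 were 1.17 ± 0.502 for SNORD19, 1.02 ± 0.206 for SNORD69 and 1.04 ± 0.603 for SNORD19C (SE), with limma adjusted p-values of 0.467 for SNORD19 and SNORD69 and 0.469 for SNORD19C. That of SNORD19 was 0.49 without control replicate 3. Together they held 23, 16 and 18 reads with I1 and 10, 9 and 7 in control, a scaled ratio of 2.34 (exact 95% interval 1.44 to 3.87). GNL3 itself had 38.6, 50.6 and 43.1 FPKM with I1 and 29.7, 49.1 and 37.4 FPKM in control, a log2 fold change of 0.20 ± 0.193 (SE; limma adjusted p = 0.603) with overlapping groups. SNORD69 entered the set only through the I1 libraries, and this host was singled out after its values were seen.

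In RPS12, a ribosomal protein gene of the small subunit, the genes inside did not move together. SNORA33 had the groups without overlap given above, SNORD101 had 9.19, 8.08 and 9.07 FPKM with I1 and 8.28, 3.16 and 8.52 FPKM in control, and SNORD100, a small-subunit guide, had 1.61, 0 and 2.37 FPKM with I1 and 2.89, 4.56 and 1.49 FPKM in control. Their log2 fold changes were 0.80, 0.45 and -0.87, and that of RPS12 was -0.03. Over the 3 genes there were 32, 23 and 34 reads with I1 and 23, 18 and 26 in control, a scaled ratio of 1.42 (exact 95% interval 1.02 to 1.97) with overlapping groups.

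The other hosts with several genes differed in direction from one another. Both genes were higher with I1 in HSPA9 (log2 fold changes of 0.06 and 0.64) and both lower in PRRC2B (-0.34 and -0.36). Within SNHG17 and within ZFAS1 the signs differed. HSPA9 held 12, 46 and 26 reads at SNORD63 and SNORD63B with I1 and 9, 19 and 27 in control, a scaled ratio of 1.63. PRRC2B held 9, 27 and 32 reads with I1 and 22, 32 and 31 in control, a ratio of 0.852. SNHG17 held 38, 58 and 51 reads at its 3 SNORA71 genes with I1 and 59, 59 and 52 in control, a ratio of 0.921. ZFAS1 held 11, 18 and 16 reads with I1 and 19, 8 and 20 in control, a ratio of 1.02. Only in GNL3, of these 6 hosts, were all I1 libraries above all control libraries.

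**Figure D5:**
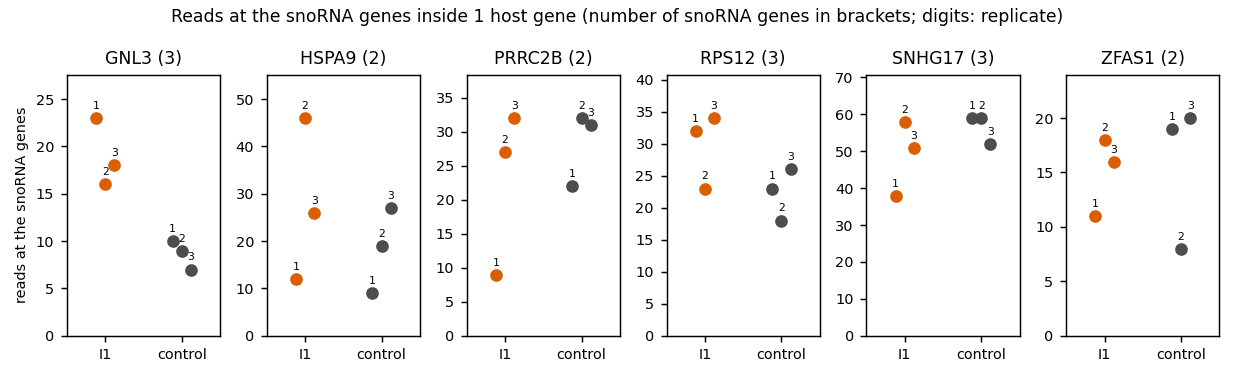
Reads in each library at the genes inside each of the 6 hosts that hold at least 2 of the 59, with the number of genes in brackets, I1 on the left and control on the right of each panel and points numbered by replicate. In GNL3 the I1 libraries hold 16 to 23 reads and the control libraries 7 to 10, while in the other 5 hosts the groups overlap.

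The replicates of a group differed at these genes by more than counting error. The chi-square per degree of freedom over the 59 genes was 2.25 among the I1 libraries and 2.51 among the control libraries (118 degrees of freedom each), where counting error alone gives about 1. The intervals of read ratios given above are therefore narrower than the full error between libraries. It also bears on the values of SNORD63B, SNORD14A and SNORD17, whose libraries of 1 group differed up to several-fold.

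The proteins that carry and release these RNAs were measured in the same libraries. Of 37 tested genes for core proteins, assembly, Cajal bodies and intron release, 0 were called by limma, 2 had an unadjusted p under 0.05 (ZNHIT6 and PIH1D1) against a background of 9.57% of all tested genes, and the median log2 fold change was 0.06, with 23 above 0 and 14 below. Of the C/D core, the methyltransferase FBL was at 141 ± 4.94 FPKM with I1 and 167 ± 27.9 in control, NOP56 at 40.7 ± 3.34 and 40.6 ± 5.27, NOP58 at 51.0 ± 3.11 and 40.3 ± 12.01, and SNU13 at 48.5 ± 4.07 and 54.3 ± 6.37 (SD, n = 3 each). The median of these 4 was -0.07. Of the H/ACA core, the pseudouridine synthase DKC1 was at 50.6 ± 2.58 FPKM with I1 and 54.1 ± 4.87 in control, NHP2 at 38.1 ± 2.11 and 41.3 ± 1.99, NOP10 at 47.9 ± 8.36 and 50.6 ± 3.83, and GAR1 at 19.0 ± 4.39 and 18.5 ± 4.57, with a median of -0.09. The mean ± SD ranges of all 8 overlapped between the groups.

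Of the assembly factors, ZNHIT6 had a log2 fold change of 0.39 ± 0.150 (SE; limma unadjusted p = 0.0305, adjusted p = 0.467) and PIH1D1, a subunit of the R2TP chaperone complex, -0.30 ± 0.130 (unadjusted p = 0.0482, adjusted p = 0.467). The helicases RUVBL2 and RUVBL1 of the same complex were at 56.2 ± 4.68 and 16.1 ± 2.07 FPKM with I1 and at 68.5 ± 10.1 and 18.3 ± 2.47 FPKM in control (SD, n = 3 each). Over 11 assembly factors the median log2 fold change was 0.06. Of the Cajal body genes, median 0.22 over 7, NOLC1 was at 87.9 ± 14.1 FPKM with I1 and 75.2 ± 10.8 in control, and COIL, the coilin gene, at 17.4 ± 1.97 and 14.2 ± 3.47. Of the genes for intron release and end processing, median 0.21 over 10, the exonuclease XRN2 was at 68.9 ± 8.47 FPKM with I1 and 72.2 ± 1.21 in control, and the helicase MTREX at 25.8 ± 2.22 and 21.8 ± 4.70. AQR, a splicing factor tied to snoRNA assembly in introns, had a log2 fold change of 0.32 ± 0.172 (SE; limma adjusted p = 0.467).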

How the data were processed

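The authors deposited 1 table of FPKM values for 29810 genes and 6 libraries, named by Ensembl identifier. The build hg38 and the tools HISAT2, Cufflinks, HTSeq and Trimmomatic are named in the submitters' processing notes, and their versions, order, annotation and handling of strand are unknown here. The name of the table mentions cells and a compound other than these, but its columns match the titles of these 6 samples. Unused columns numbered 0. Not all genes of the marker lists are reported here.

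Read numbers were recovered from the FPKM steps with exon lengths of GENCODE release 29: 95.9% of 29703 genes gave whole reads within 0.05. Because FPKM is scaled to a library total and to length, abundant genes that change move the values of the rest, and a short gene needs few reads for a high value. A floor is 3 reads.

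The test of I1 against control used limma 3.58.1 with an intensity trend in R 4.3.3, on log2(FPKM + 1), for genes at 1 FPKM or more in at least 3 libraries, 2-sided, called where the adjusted p was under 0.05 and the log2 fold change 1 or more in size. The fit was also run on simulated data. Those results are not reported here and are not evidence of how the test performs for genes with few reads, such as SNORD18. Tables were made with Python 3.11.15, and identities with Biopython 1.88. Ratios of reads have exact binomial intervals. Deviations from group means correlated at 0.476, 0.457 and 0.412 between libraries of the same number. Numbers were therefore taken to pair the libraries in the pair comparisons and in the block setting. The main test left this pairing out, and its SE, p and calls are those of an unpaired fit. The members, lists and tests were chosen with earlier results of these data known. Named were the genes with an adjusted p under 0.05, the 5 most abundant C/D and H/ACA genes and the scaRNA genes, up to 4 rises and falls without overlap at 10 or more reads, SNORD3A and SNORA73B, the hosts, and core proteins; further genes are marked. Alternatives were other pseudocounts, filters, scalings, GC correction, the block, and leaving out each library.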

Additional observations from a re-analysis of the deposited data

How the results depend on the processing

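The 4 genes called among all tested genes were 0 with a pseudocount of 0.1 or 0.5, with no filter, with a mean of at least 5 FPKM and with GC correction, 2 with quantile normalization, 1 with the replicate block and GC correction, and 0 to 2 without single libraries (479 to 1726 genes had an unadjusted limma p under 0.05 where 0 were called). SNORD18, the 1 call in the set, was kept with median-ratio scaling, quantile normalization and the replicate block, and was 0 with both pseudocounts, no filter, a mean of at least 5 FPKM (which leaves the gene out), GC correction (adjusted p = 0.0583) and the block with GC correction (adjusted p = 0.0655). Apart from the gene left out, the cause was not tested. Under those settings with 0 calls in the set, limma gave 4 to 19 of its genes an unadjusted p under 0.05. The 4 were among the 20 genes of the set tested at a mean of at least 5 FPKM, against 685 of all 6931 tested. The 19 were among all 59 with the block and GC correction, against 1912 of all 11899 tested. Without single libraries calls in the set were 0 to 1, with SNORD18 kept only without control replicate 2. With the replicate block, 6 genes were called in all, and of the set 1, with 20 of its 59 genes at an unadjusted p under 0.05, against 27.1% of all tested genes.

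The median log2 fold change of the set, 0.26, was 0.39 with a pseudocount of 0.1, 0.19 at a mean of at least 5 FPKM, 0.18 with quantile normalization, -0.014 at 10 or more reads, and 0.13 to 0.39 without single libraries, lowest without control replicate 1. The C/D median was -0.014 at a mean of at least 5 FPKM and -0.11 at 10 or more reads. The summed FPKM ratio, 1.2, was 1.17 without SNORD63B, 1.15 with median-ratio scaling and 1.12 to 1.29 without single libraries. Without single libraries the scaRNA sum ratio was 1.36 to 3.35, the read share ratio 1.07 to 1.23 and gene minus host 0.029 to 0.31. Log2 fold changes that changed sign without single libraries ran from -0.72 to 0.20 for SNORD62B, -0.26 to 0.57 for SNORD14A, -0.38 to 0.25 for SNORD17, -0.069 to 0.33 for SNORA73B, -0.65 to 0.30 for SNORA11F, -0.13 to 0.54 for SNORA71C and -0.40 to 0.25 for SCARNA1. With a pseudocount of 0.1, the log2 fold change was 4.93 for SNORD18, 2.62 for SNORA16B, 2.14 for SCARNA20, 1.63 for SNORD69 and 1.40 for SNORA79B. Of 141 recomputed summary values 91 stayed within their limits, and of 293 values of single genes 269 kept direction and call. For medians and summed ratios the limit was the SD over the numbered pairs. It was wide for some, at 0.303 for the C/D median, whose 0.07 with GC correction counted as within it, and 1.36 for the scaRNA sum ratio. Of the single genes only SNORD18 was called in the main setting, so keeping the call says little for the others.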
